A study of Homo sapiens with 4 samples.

Results

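The genes described here encode mitochondrial ribosomal proteins. They were chosen by name alone, as protein-coding genes whose symbol begins with MRPL or MRPS followed by a number and which do not lie on chromosomes 8 or 14. The rule found 73 genes, 45 named MRPL and 28 named MRPS, among the 63677 genes counted in each library. They are spread over 19 chromosomes. The libraries came from FLO-1 parental cells, a human esophageal adenocarcinoma line, and from FLO-1LM, a subline grown out of liver metastases that FLO-1 cells formed in immunodeficient NSG mice and returned to culture. FLO-1LM was a line established from tumor pieces, and no label states that it was cloned. The labels and the study's RNA-sequencing methods name no engineered allele and no drug treatment for either group. The study also made luciferase-eGFP versions of both lines, which the labels do not mention. Both lines were harvested for total RNA at 80% confluency, 24 hours after the medium was changed, and each gave 2 libraries. The comparison of FLO-1LM with FLO-1 parental cells is the only one in the series.

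Mitochondria carry their own ribosomes, which translate the few proteins encoded by the mitochondrial genome, core subunits of the respiratory chain and the ATP synthase. The RNA of these ribosomes is made inside the mitochondrion, whereas all of their proteins are encoded in the nucleus, translated in the cytosol and imported. Many of the proteins have relatives in the bacterial ribosome, and the others are classed as mitochondria-specific. MRPL and MRPS stand for the large and the small subunit, although the names are not always right. *MRPS30* and *MRPS18A* encode proteins that sit in the large subunit, and *MRPS36* encodes a component of the alpha-ketoglutarate dehydrogenase complex rather than a ribosomal protein.

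The promoters of these genes were compared in sequence with those of protein-coding genes. RefSeq promoters of 300 bases, 250 before and 50 after the start on GRCh38.p14, were matched to 68 of the 73 genes and searched on both strands for 4 motifs known from promoters of nuclear genes for mitochondrial proteins. The ETS/GABP motif CCGGAAG stood in 28 of the 68 promoters (41.2%) and in 12.8% of the 22199 promoters of protein-coding genes in the same table. The YY1 motif AAGATGGCG stood in 12 (17.6%), against 2.41% of protein-coding promoters. The NRF1 motif, 10 bases of which 1 is free, was found in 7 (10.3%, against 7.39%), and the SP1 motif GGGCGG in 42 (61.8%, against 56.3%). At least 1 of the 4 motifs was present in 61 of the 68 promoters (89.7%) and in 62.1% of protein-coding promoters. The 4 motifs do not contain each other, though matches can overlap in a GC-rich promoter. A match says only that these letters are in the window. The protein-coding promoters were not matched for expression or GC content, so a larger share cannot be read as particular to these genes.

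The following windows hold ETS/GABP matches in capitals with their flanking bases, 5′ to 3′ on the strand of the gene. *MRPL3*, *MRPL40* and *MRPL47* were 3 of the 6 genes with the smallest p among those with a higher level in FLO-1LM, and *MRPS12* was among the genes with the highest level per length of the canonical transcript. Their matches began 32, 11, 39 and 5 bases before the annotated start.
MRPL3, chr3:131502987-131503013, minus strand: gtaaaacgcaCCGGAAGtgggtccggc
MRPL40, chr22:19432524-19432550, plus strand: gggcgcacgcCCGGAAGcggcgagggt
MRPL47, chr3:179604661-179604687, minus strand: gcttgagacgCCGGAAGtgacgctatc
MRPS12, chr19:38930929-38930955, plus strand: cggatagcgcCCGGAAGaggctagaag

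The YY1 matches are shown for 4 of the MRPS genes described in the text. In each of them the match began 10 to 24 bases after the start, and the letters contain ATG, the bases of a start codon.
MRPS18A, chr6:43687764-43687792, minus strand: taggtttttgAAGATGGCGgccctcaagg
MRPS18B, chr6:30617853-30617881, plus strand: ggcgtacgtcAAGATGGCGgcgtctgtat
MRPS24, chr7:43869480-43869508, minus strand: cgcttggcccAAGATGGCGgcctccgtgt
MRPS30, chr5:44808950-44808978, plus strand: atcgcgggcaAAGATGGCGgcggccaggt

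The NRF1 motif is nearly palindromic, and the 2 examples shown were chosen after the matches were seen.
MRPL17, chr11:6683402-6683431, minus strand: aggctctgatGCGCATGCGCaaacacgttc
MRPS33, chr7:141015088-141015117, minus strand: tagccttactGCGCAGGCGCcaggtacacc

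Total counts per library ran from 19060310 to 25920336. The labels do not tell separate cultures from repeat libraries of 1 culture, so the p-values measure only the spread between these libraries, which may be technical. No batch is given, so batch and line cannot be told apart. Reads from the mitochondrial chromosome made up 9.57% to 9.96% of the counts in FLO-1LM and 7.93% to 8.31% in FLO-1 parental. Of the 6 epithelial markers that passed the filter on low counts, 5 were downregulated in FLO-1LM, but the keratins KRT8 and KRT18 stood at 182.6 CPM or more in every library. *EPCAM*, which marks most epithelial cells, was below 1 CPM in every library. The leukocyte marker *PTPRC* and the hepatocyte marker *ALB* had no count in any library, which allows up to 0.157 CPM. Levels are given as CPM, the counts of a gene relative to the TMM-scaled size of its library.

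None of the genes for mitochondrial ribosomal proteins was called differentially expressed between FLO-1LM and FLO-1 parental cells. Of the 73 genes, 71 passed the filter on low counts and were tested, and 0 had an adjusted p below 0.05 in the quasi-likelihood test of edgeR, adjusted over all genes by the Benjamini-Hochberg method. The same threshold called 382 of the 17143 genes tested (2.23%), 69 higher (0.402%) and 313 lower (1.83%) in FLO-1LM. DESeq2, which called 1.97% of all genes, and limma voom, which called 2.15%, also called 0 of the 71. The count was 0 as well with RLE factors (2.21% of all genes called), library totals only (2.41%), at least 10 counts in every library (1.74%), the mitochondrial chromosome left out (2.24%) and the cytosolic ribosomal protein genes left out (2.29%). At an unadjusted p under 0.05 there were 7 of the 71 with edgeR (9.86%), all with the higher level in FLO-1LM, 3 with DESeq2 and 7 with limma voom. Over all genes tested, 12.4% had an unadjusted edgeR p under 0.05, 5.28% higher and 7.08% lower, and the shares with DESeq2 and limma voom were 8.4% and 12.6%.

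The differences were small and more often positive. The log2 fold change, FLO-1LM against parental, was above 0 in 50 of the 71 genes and below 0 in 21, while 50.4% of all genes tested were above 0. The median was 0.063 for these genes and 0.0016 for all genes tested. When library sizes were scaled by their totals only, both medians moved, to 0.032 and −0.029, and the difference between them stayed at 0.061. Leaving out a library moved the members more, to a median of 0.023 without parental replicate 1 and 0.10 without parental replicate 2, and the difference from all genes ran from 0.014 to 0.097 over the 4 libraries left out. Both FLO-1LM libraries lay above both parental libraries for 21 of the 71 genes (29.6%), against 20.9% of all genes tested. The reverse order was found for 6 genes (8.45%), against 21.7% of all genes tested. These shares are descriptions, and the genes are not independent of each other. They hold for TMM scaling, and the count of members higher was smaller with library totals only.

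For most of the genes the interval around the log2 fold change was narrow. The interval rests on the spread between the 2 libraries of each line, which edgeR estimates largely over all genes rather than from each gene alone. That spread may be technical, so the interval may not limit a difference between separate cultures. The 95% interval of the log2 fold change lay within 0.5 of 0 on both sides for 60 of the 71 genes (84.5%), against 53.4% of all genes tested, and within 1 for 70. The median standard error was 0.10, and 0.14 over all genes tested. These comparisons with all genes were not matched for level, and counting noise is larger at low counts. The exception at the wider limit was *MRPS24*, which had few counts.

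**Figure D1:**
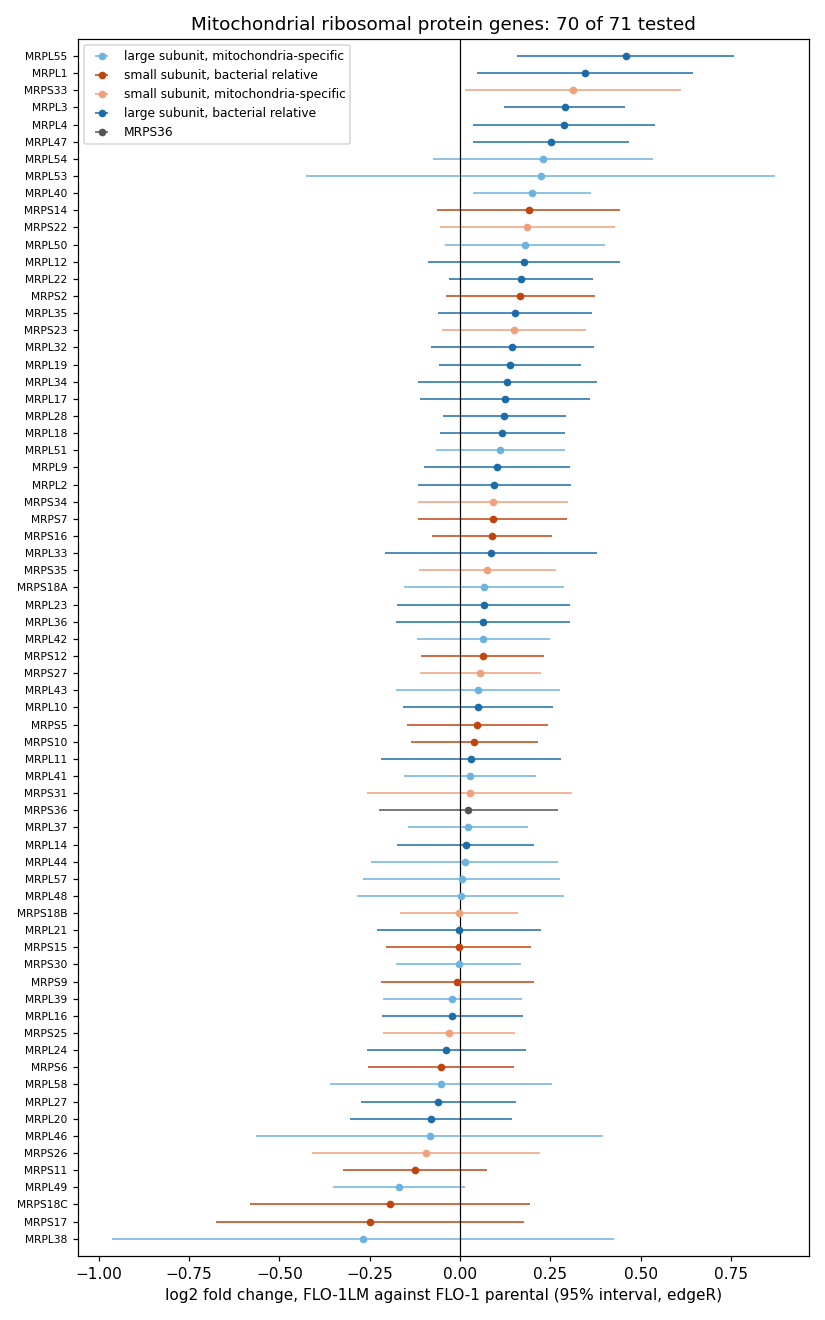
Log2 fold change of FLO-1LM against FLO-1 parental with its 95% interval from edgeR for 70 of the 71 genes tested, ordered by size. Colours give the subunit and whether the protein was classed as having a bacterial relative or as mitochondria-specific. *MRPS24*, at −1.88, is left out so that the axis can show the rest, which lie between −0.27 and 0.46.

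The large subunit proteins with a bacterial relative had the most genes above 0. Of the 28 genes, 27 were tested, and 22 of the 27 log2 fold changes were above 0, with a median of 0.12. Both FLO-1LM libraries were above both parental ones for 11 (40.7%) and below for 2 (7.41%), against 20.9% and 21.7% of all genes tested. Among the 19 large subunit genes classed as mitochondria-specific, 13 were above 0 and the median was 0.022. The groups did not overlap for 5 higher (26.3%) and 1 lower (5.26%). The 14 tested of 15 small subunit genes classed with a bacterial relative split evenly, 7 above and 7 below, with a median of 0.018. Their groups did not overlap for 1 higher (7.14%) and 3 lower (21.4%). All 10 small subunit genes classed as mitochondria-specific were tested. Of these, 7 were above 0, the median was 0.066, and the groups did not overlap for 4 higher (40.0%) and 0 lower. The differences between these 4 classes were not tested.

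*MRPL3* had the smallest p of all members. It encodes a large subunit protein whose bacterial relative reaches towards the peptidyl transferase centre, and it lies on chromosome 3 from 131181056 to 131221827 on GRCh37. It stood at 110.1 and 107.5 CPM in FLO-1LM and at 90.5 and 87.6 CPM in FLO-1 parental. The groups did not overlap, and the 2 libraries of each line were close together. The log2 fold change was 0.29 (SE 0.080), and the adjusted p in edgeR's quasi-likelihood test was 0.0735.

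*MRPL55*, on chromosome 1 from 228294380 to 228297013, had the largest positive log2 fold change, 0.46 (SE 0.14, edgeR adjusted p = 0.13). Its level was 22.9 and 20.6 CPM in FLO-1LM against 14.8 and 16.8 CPM in FLO-1 parental. *MRPL40*, a gene of the 22q11.2 deletion region on chromosome 22 from 19420068 to 19423598, was at 126.8 and 123.3 CPM in FLO-1LM and at 108.0 and 109.9 CPM in FLO-1 parental. The lines did not overlap for either gene, and the log2 fold change of *MRPL40* was 0.20 (SE 0.078, edgeR adjusted p = 0.28).

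*MRPL47* encodes a relative of bacterial L29, which lies at the exit of the peptide tunnel. It was at 45.6 and 42.3 CPM in FLO-1LM and at 37.97 and 35.8 CPM in FLO-1 parental, with a log2 fold change of 0.25 (SE 0.10, edgeR adjusted p = 0.30). *MRPL1*, a relative of the L1 protein of the stalk where used tRNAs leave, was at 29.7 and 22.5 CPM against 19.9 and 21.1 CPM. Its groups did not overlap either, but its 2 FLO-1LM libraries differed from each other more than the second one differed from the parental libraries. *MRPL4*, a relative of a protein that lines the peptide tunnel, was at 58.1 and 44.2 CPM in FLO-1LM and at 39.2 and 44.5 CPM in FLO-1 parental. Here the groups overlapped, and the higher mean in FLO-1LM came from replicate 1. The log2 fold changes of *MRPL1* and *MRPL4* were 0.35 (SE 0.14) and 0.29 (SE 0.12), with edgeR adjusted p of 0.31 and 0.32. Without FLO-1LM replicate 1 they were 0.13 and 0.078, and without FLO-1LM replicate 2 they were 0.54 and 0.47.

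The seventh gene with an unadjusted p under 0.05 was *MRPS33*, a small subunit protein found only in mitochondria, which was picked out after its values were seen. It stood at 27.5 and 39.7 CPM in FLO-1LM and at 26.7 and 27.5 CPM in FLO-1 parental. The groups overlapped, and replicate 2 alone was high. Its gap between the FLO-1LM libraries, 0.527 on the log2 scale, was the widest in that line among the 70 members with at least 10 counts in every library. The log2 fold change was 0.31 (SE 0.14, edgeR adjusted p = 0.38).

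Which genes passed depended on the FLO-1LM libraries used. Without FLO-1LM replicate 2, 5 genes passed the adjusted threshold, *MRPL1*, *MRPL3*, *MRPL4*, *MRPL54* and *MRPL55*, all higher in FLO-1LM, where 5.4% of the genes tested were called and 1.81% were called higher. Without FLO-1LM replicate 1, 2 passed, *MRPS33* with a higher and *MRPS24* with a lower level, and 5.85% of the genes tested were called. *MRPL3* was also called when no filter on low counts was used, at an edgeR adjusted p of 0.0493, where 2.2% of all genes were called. Without parental replicate 1 or 2, 0 members were called, against 0.651% and 0.775% of all genes. With 1 library left in a line, its spread is assumed to be that of the other line.

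Lower levels in FLO-1LM were fewer. *MRPL49*, a large subunit protein found only in mitochondria, on chromosome 11 from 64889655 to 64894843, had the smallest p among them. It was at 72.1 and 79.3 CPM in FLO-1LM and at 82.7 and 87.7 CPM in FLO-1 parental, and the groups did not overlap. Its log2 fold change was −0.17 (SE 0.087, edgeR adjusted p = 0.45).

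*MRPS11* and *MRPS17* encode relatives of bacterial S11 and S17, and both genes were lower in both FLO-1LM libraries. *MRPS11* was at 61.4 and 53.5 CPM in FLO-1LM and at 62.6 and 62.5 CPM in FLO-1 parental, a log2 fold change of −0.12 (SE 0.095, edgeR adjusted p = 0.68). *MRPS17* was at 7.45 and 6.88 CPM against 7.76 and 9.28 CPM, a log2 fold change of −0.25 (SE 0.20, edgeR adjusted p = 0.70). For both, the closest libraries of the lines were nearer to each other than the 2 FLO-1LM libraries were.

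*MRPS18C* and *MRPL38* overlapped between the lines. *MRPS18C* was at 9.43 and 11.7 CPM in FLO-1LM and at 10.9 and 13.3 CPM in FLO-1 parental (log2 fold change −0.19, SE 0.18, edgeR adjusted p = 0.76). *MRPL38* was at 2.38 and 3.03 CPM against 3.90 and 2.61 CPM (log2 fold change −0.27, SE 0.33, edgeR adjusted p = 0.83). Its 2 parental libraries spanned the range of all 4, apart from the lowest FLO-1LM value.

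**Figure D2:**
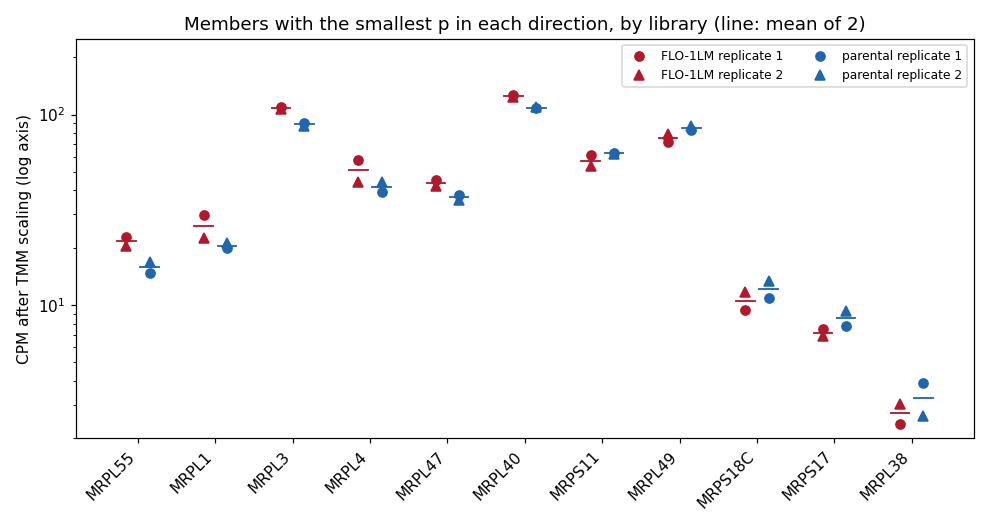
Level in CPM after TMM scaling, on a log axis, in each of the 4 libraries for the genes with the smallest p in each direction, *MRPS24* left out for its 0 in 1 library. Points are libraries and lines the mean of 2. *MRPL55*, *MRPL1*, *MRPL3*, *MRPL47* and *MRPL40* are higher in both FLO-1LM libraries, and *MRPL4* overlaps.

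Several members are known for a role beyond that of a structural protein, and none of them was called. *MRPL12*, a stalk protein that also binds the mitochondrial RNA polymerase, was at 23.5 and 25.5 CPM in FLO-1LM and at 21.5 and 21.96 CPM in FLO-1 parental. The groups did not overlap, with a log2 fold change of 0.18 (SE 0.13). *MRPL44*, which has a domain related to RNase III, was at 39.8 and 30.9 CPM against 33.8 and 36.2 CPM, so that the FLO-1LM libraries were the highest and the lowest. *MRPL58*, a peptidyl-tRNA hydrolase that rescues stalled ribosomes, was at 17.4 and 20.9 CPM against 18.4 and 21.4 CPM and overlapped. Their log2 fold changes were 0.01 (SE 0.12) for *MRPL44* and −0.05 (SE 0.15) for *MRPL58*. The sign for *MRPL44* turned when library sizes were scaled by their totals only, to −0.02.

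In the small subunit, *MRPS12*, whose bacterial relative sits at the decoding centre, was at 123.6 and 118.9 CPM in FLO-1LM and at 110.5 and 121.7 CPM in FLO-1 parental. The groups overlapped, with a log2 fold change of 0.06 (SE 0.081). *MRPS16* and *MRPS34*, in which inherited mutations impair mitochondrial translation, did not overlap. *MRPS16* was at 106.4 and 109.7 CPM against 101.3 and 102.2 CPM, and *MRPS34* at 43.1 and 42.9 CPM against 40.0 and 40.7 CPM. Both log2 fold changes were 0.09, with SE of 0.079 and 0.099. *MRPS22*, another gene with such mutations, was at 51.5 and 42.8 CPM against 37.7 and 45.2 CPM and overlapped.

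The MRPS18 genes form a family of 3 relatives of bacterial S18, 1 of which, *MRPS18A*, is placed in the large subunit. The ribosome nomenclature lists *MRPS18A* and *MRPS18B* with the mitochondria-specific proteins, and they were classed so here. *MRPS18A* was at 47.7 and 45.8 CPM in FLO-1LM and at 40.7 and 48.7 CPM in FLO-1 parental. *MRPS18B* was at 125.2 and 130.3 CPM against 125.2 and 130.7 CPM. Its log2 fold change was −0.002 with a 95% interval from −0.17 to 0.16. Per length of the canonical transcript the family members stood at 39.3, 91.5 and 7.30 RPKM for *MRPS18A*, *MRPS18B* and *MRPS18C*, and all 3 overlapped between the lines.

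*MRPS30* was the member with the widest gap in CPM between libraries of 1 line. It was at 156.2 and 135.1 CPM in FLO-1LM, on either side of 146.2 and 145.8 CPM in FLO-1 parental. *MRPS36*, the gene of the alpha-ketoglutarate dehydrogenase component, was at 30.1 and 27.3 CPM against 27.3 and 29.2 CPM. Its log2 fold change was 0.02 (SE 0.12), and −0.01 with library totals only.

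The 2 libraries of a line were close for these genes. The median gap between the FLO-1LM libraries was 0.137 on the log2 scale over 70 members with at least 10 counts in every library, and that between the parental libraries was 0.0854. Over the 15474 genes with as many counts the gaps were 0.157 and 0.12. A gap above 0.2 was found for 20 members in FLO-1LM (28.6%) and 15 in FLO-1 parental (21.4%), against 41.3% and 31.4% of those genes. The comparison genes were not matched for level, and counting noise is larger at low counts. The median level of the members was 44.3 CPM, so the smaller gaps cannot be read as particular to them. The summed level of the 73 genes was 3857 and 3764 CPM in FLO-1LM and 3550 and 3717 CPM in FLO-1 parental, so the sums did not overlap, and the parental libraries differed from each other by more than the closest libraries of the lines.

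The steady-state level differed between the genes far more than between the lines. Per length of all annotated exons, RPKM from the mean of the 4 libraries was highest for *MRPL41* (145.9), *MRPL40* (88.5), *MRPL14* (79.3) and *MRPL18* (73.9), and the median of the 73 genes was 17.1 RPKM. Exons summed over all annotated isoforms are longer than 1 transcript, and with the length of the canonical transcript the median was 37.7 RPKM. On that scale the order at the top was *MRPL40* (157.3), *MRPL41* (145.9), *MRPS12* (123.8) and *MRPL18* (104.7). *MRPL40* and *MRPL41* did not differ beyond their spread, since on the canonical scale *MRPL40* ranged from 145.2 to 170.4 RPKM over the libraries and *MRPL41* from 139.3 to 154.2 RPKM. The lowest *MRPL41* library was still above the highest *MRPS12* library, at 128.9 RPKM.

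*MRPL41*, a large subunit protein found only in mitochondria, was at 89.7 and 81.8 CPM in FLO-1LM and at 81.1 and 87.2 CPM in FLO-1 parental. *MRPL14*, a relative of an intersubunit protein, was at 81.2 and 71.3 CPM against 73.5 and 77.4 CPM. *MRPL18*, a relative of a 5S rRNA-binding protein, was at 106.3 and 105.0 CPM against 92.8 and 102.1 CPM. Of these 3, *MRPL18* alone was higher in both FLO-1LM libraries. The log2 fold changes were 0.03 (SE 0.087), 0.02 (SE 0.091) and 0.12 (SE 0.082) in that order, and those of *MRPL41* and *MRPL14* fell below 0 with library totals only.

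**Figure D3:**
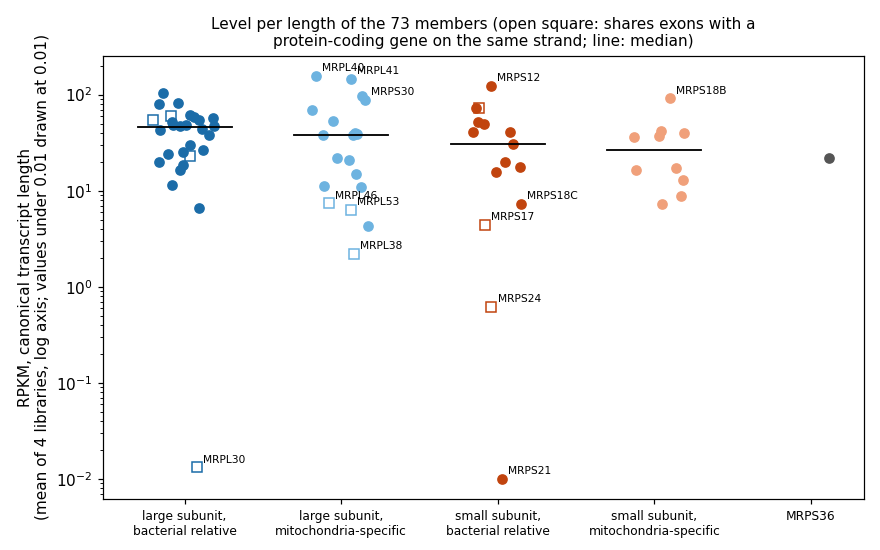
Mean RPKM over the 4 libraries per length of the canonical transcript, on a log axis, for the 73 genes by subunit and bacterial relation, with the median of each class as a line. Open squares mark genes that share exons with a protein-coding gene on the same strand, and *MRPS21*, at 0, is drawn at 0.01. *MRPL40* (157.3) and *MRPL41* (145.9) are at the top, and *MRPL30*, *MRPS24* and *MRPL38* stand below the other genes with a count.

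At the bottom were genes with hardly any count. *MRPS21* (chromosome 1 from 150266281 to 150281414), a relative of bacterial S21, had 0 counts in all 4 libraries, which allows up to 0.157 CPM per library. *MRPL30* (chromosome 2 from 99797615 to 99816024) had 6 counts in FLO-1LM replicate 2 and none elsewhere. Neither was tested. *MRPS24*, a relative of bacterial S3 on chromosome 7 from 43906157 to 43909492, had 8 and 0 counts in FLO-1LM and 18 and 9 in FLO-1 parental. The groups did not overlap, and the log2 fold change of −1.88 (SE 1.00, edgeR adjusted p = 0.48) rested on these few counts.

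Low counts went with shared exons. In all, 7 members had a mean below 10 CPM, *MRPL30*, *MRPL38*, *MRPL46*, *MRPL53*, *MRPS17*, *MRPS21* and *MRPS24*. Of these, 6 share exons on the same strand with a protein-coding gene that is also in the files, against 4 of the other 66 (*MRPL12*, *MRPL28*, *MRPL33* and *MRPS6*). This look at exons was chosen after the values were seen. For *MRPS24* the partner is URGCP-MRPS24, a read-through gene that had 0 counts in every library and covers 23.3% of its annotated exon length. The unnamed partners of *MRPL38* and *MRPS17* cover 41.1% and 22.4% and also had 0 counts. *MRPL53* shares 72.9% with CCDC142, which had 233 to 336 counts. The size of the shared part did not follow the level in every case. *MRPL12* shares 69.5% with an unnamed gene at 0 counts and had a mean of 23.1 CPM, whereas *MRPL46*, among the low genes, shares 11.3%. The treatment of reads that fall on more than 1 gene is not given in the sources used here, and its part in these low values was not tested. *MRPS21* shares no exon with such a gene in this annotation. The 8012 identifiers of the files without a match in the annotation could not be checked for shared exons.

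Without the members that share exons, 63 remained and 62 were tested. Of these, 46 log2 fold changes were above 0, 16 were below, and the median stayed at 0.063. The groups did not overlap for 18 higher in FLO-1LM (29.0%) and 4 lower (6.45%), against 20.9% and 21.7% of all genes tested.

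Pseudogenes of these genes were counted separately. The files held 68 of them outside chromosomes 8 and 14, and 3 passed the filter. *MRPL3P1*, a processed copy of *MRPL3*, had 484 and 475 counts in FLO-1LM and 362 and 344 in FLO-1 parental, higher in both FLO-1LM libraries like *MRPL3* itself (log2 fold change 0.22, SE 0.14, edgeR adjusted p = 0.59). Reads of a gene and its near-identical copy can be exchanged, so the values of *MRPL3*, *MRPS18C* and *MRPS36*, which have a tested copy, are uncertain to that extent.

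The difference between the lines is given beside the motifs as a description, with no test. The median log2 fold change was 0.075 for the 26 tested genes with an ETS/GABP match and 0.039 for the 40 without. Both FLO-1LM libraries were above both parental ones for 10 (38.5%) and 9 (22.5%) of them, against 20.9% of all genes tested. For YY1 the medians were 0.052 for 12 genes with a match and 0.060 for 54 without. Of these, 3 (25.0%) and 16 (29.6%) were above in both FLO-1LM libraries. For NRF1 the medians were 0.040 for 6 genes and 0.060 for 60, with 0 and 19 genes (31.7%) above. For SP1 they were 0.060 for 42 genes and 0.047 for 24, with 12 (28.6%) and 7 genes (29.2%) above. The 7 genes with an unadjusted edgeR p under 0.05 included 4 of the 26 with an ETS/GABP match (15.4%) and 0 with a YY1 match. They also included 1 of the 6 with an NRF1 match (16.7%) and 5 of the 42 with an SP1 match (11.9%). Over all genes tested 12.4% had such a p, and 5.28% had it with a higher level in FLO-1LM.

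The other parts of the mitochondrial ribosome went with the proteins only in part. Of 5 mitoribosome proteins under other symbols (*DAP3*, *PTCD3*, *CHCHD1*, *AURKAIP1* and *GADD45GIP1*), 0 were called and the median log2 fold change was 0.01. Over all genes tested 2.23% were called, so 0 of so few genes says little. *CHCHD1* had the smallest p of the 5, at 36.7 and 32.1 CPM in FLO-1LM against 33.4 and 41.0 CPM. Both mitochondrial ribosomal RNAs were called higher in FLO-1LM. The study's methods do not say how ribosomal RNA was handled in library preparation, so these counts may not measure the level of the rRNAs. *MT-RNR2*, the large rRNA, was at 30299 and 30330 CPM in FLO-1LM and at 23027 and 24655 CPM in FLO-1 parental, a log2 fold change of 0.35 (SE 0.054, edgeR adjusted p = 0.00107). *MT-RNR1*, the small rRNA, was at 2099 and 2244 CPM against 1775 and 1745 CPM, a log2 fold change of 0.30 (SE 0.064, edgeR adjusted p = 0.0143). The groups did not overlap for either rRNA. Without parental replicate 1 or 2 the edgeR adjusted p of *MT-RNR1* was 0.0751 or 0.0993, and it was no longer called, with log2 fold changes of 0.32 and 0.29. These 2 genes lie on the mitochondrial chromosome, whose share of the counts was higher in FLO-1LM as a whole, and nuclear copies of that chromosome can take or give reads. Whether the rRNAs differed in their change from the protein genes was not tested.

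Factors that build and run these ribosomes were not called either, where 2.23% of all genes tested were called. At that share, 0 calls in lists this short say little about the factors. Of 22 assembly factors, 0 passed the threshold, 12 log2 fold changes were above 0 and the median was 0.018. The groups did not overlap for 4 higher (18.2%) and 6 lower (27.3%), near the 20.9% and 21.7% of all genes tested. *MPV17L2*, an assembly factor of the inner membrane, had the smallest p, at 13.6 and 16.4 CPM in FLO-1LM and at 11.3 and 11.2 CPM in FLO-1 parental (log2 fold change 0.41, SE 0.17, edgeR adjusted p = 0.29). It passed at an edgeR adjusted p of 0.0348 without FLO-1LM replicate 1, where 5.85% of all genes tested were called. *DDX28*, an RNA helicase of large subunit assembly, was the other factor with an unadjusted p under 0.05 and was lower in both FLO-1LM libraries, at 16.02 and 16.8 CPM against 18.9 and 22.2 CPM (log2 fold change −0.32, SE 0.14, edgeR adjusted p = 0.37). Of 15 translation factors, 0 were called and the median was 0.054. *LRPPRC*, which stabilizes mitochondrial mRNAs, was at 465.8 and 476.4 CPM against 421.4 and 409.4 CPM (log2 fold change 0.18, SE 0.069, edgeR adjusted p = 0.25). Of 22 genes for mitochondrial aminoacyl-tRNA synthesis, 0 were called and 11 were on each side of 0. The groups did not overlap for 5 higher (22.7%) and 8 lower (36.4%). *MARS2*, the methionyl-tRNA synthetase, was lower in both FLO-1LM libraries, at 6.73 and 6.22 CPM against 8.35 and 9.44 CPM (log2 fold change −0.46, SE 0.20, edgeR adjusted p = 0.36).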

How the data were processed

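Per the labels and the study's methods, the authors extracted total RNA, made directional libraries, trimmed reads with Trimmomatic 0.30, mapped them to GRCh37 with an unnamed short read aligner and deposited raw read counts per Ensembl gene without normalization. How reads were counted, and whether by strand, is not given in the sources used here. Gene symbols, positions and exon lengths came from GENCODE version 44 mapped to GRCh37, which matched 55665 of 63677 identifiers. The identifier of *MRPL45* had no match, and it was not analysed here. Line membership was taken from the labels. In R 4.3.3, genes were filtered with filterByExpr (minimum count 10, minimum total 15), scaled by TMM and compared with edgeR 4.0.16 (glmQLFit, glmQLFTest), with Benjamini-Hochberg adjustment over 17143 genes and a threshold of 0.05. SE is the standard error of the log2 fold change. RPKM is CPM per kilobase of exon. A value of 0 allows up to 3 counts, and such limits cover counting error only. DESeq2 1.42.0 and limma 3.58.1 were alternatives. The script was tested on simulated data. Members named were the 6 with the smallest p in each direction, the 4 highest and 4 lowest per length, those with roles of their own, and the one with the widest gap between libraries of a line. *MRPS33*, *MRPL46*, *MRPL53* and *MRPL54*, and *DDX28* and *MTIF3* of the other lists, were named after their values were seen. The members, lists and motifs were chosen with earlier results of these data known. Promoters came from RefSeq (GRCh38.p14).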

Additional observations from a re-analysis of the deposited data

How the results depend on the processing

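With 2 libraries per line, the number of members called ranged from 0 to 5 when each library was left out in turn, and the share of all genes called ranged from 0.651% to 5.85%. The median log2 fold change of the members then ranged from 0.023 to 0.10, against a standard deviation of 0.0354 between libraries of a line. For assembly factors the count ranged from 0 to 1 and for rRNAs from 1 to 2, and for the other 3 translation lists it was 0 throughout. With no filter on low counts 1 member was called (*MRPL3*), and with RLE factors, library totals only, DESeq2, limma voom, at least 10 counts in every library, the mitochondrial chromosome left out or the cytosolic ribosomal protein genes left out, 0 were. With the mitochondrial chromosome left out the rRNAs have no value. The counts of members whose groups do not overlap, 21 and 6, were within 1.5 times in the alternatives run with 4 libraries, 15 higher being the lowest with library totals only. The share over all genes was taken for the main scaling only, so the excess of the members over it may depend on the scaling. Median RPKM was 37.7 with the canonical transcript length, chosen after the data were seen. The cause of these shifts was not tested.

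Of the 26 members named by rule that were fitted, *MRPS33* not among them, 4 changed sign in 1 or more of the 8 alternatives with 4 libraries. With library totals only, the log2 fold change was −0.016 for *MRPL14*, −0.0033 for *MRPL41*, −0.019 for *MRPL44* and −0.0084 for *MRPS36*, and with limma voom −0.0038 for *MRPL44*. When a library was left out, 10 changed sign. Their log2 fold changes ranged from −0.082 to 0.11 (*MRPL14*), −0.52 to 0.055 (*MRPL38*), −0.041 to 0.095 (*MRPL41*), −0.18 to 0.19 (*MRPL44*), −0.19 to 0.069 (*MRPL58*), −0.0056 to 0.13 (*MRPS12*), −0.060 to 0.20 (*MRPS18A*), −0.033 to 0.029 (*MRPS18B*), −0.11 to 0.098 (*MRPS30*) and −0.047 to 0.091 (*MRPS36*). No paired analysis was possible because the labels number no replicates, and the numbers used here only name the libraries.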
